A study of Sus scrofa with 2 samples.

Results

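C1QB, CFD and B2M are 3 of the 83 genes named on a spotted cDNA microarray of a pig brain library, and their 9 spots are part of 249 named spots and 3888 spots in all. They were taken by gene symbol from the array's annotation table, in which each gene had 3 consecutive spots made from 1 clone. The study measured the background of the array: cDNA was made from 18 µg of whole brain total RNA of a 23-day-old female pig and divided, and both aliquots were labelled and put on the same array. The 2 arrays form 1 group, the second being a repeat of the first, and the labels do not say whether animal or RNA was shared. Strain and any treatment are not given in the sources used here, and no other group was analysed here. Both channels of an array hold the same sample, so a ratio away from 0 is a difference of the measurement and not of the genes' regulation.

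The complement system is a cascade of plasma proteins that tags targets for removal. C1QB encodes the B chain of C1q, the molecule that starts the classical pathway, which in brain is made mainly by microglia and is known for marking synapses during development. CFD encodes complement factor D, also called adipsin, the serine protease that cleaves factor B in the alternative pathway and is abundant in fat cells. B2M encodes beta-2-microglobulin, the light chain of MHC class I molecules, which show peptides to T cells and are also known in neurons.

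Each value is the signed log2 ratio of the channels of a spot, with 0 meaning equal signal. The dyes are not given, so a positive value is higher in one channel without saying which. The log base and the centring are not stated either. Base 2 was taken as the usual one, and on a natural log the fold of C1QB given below would be 1.26 in place of 1.17. The medians of both arrays were 0, and over the named spots -0.016 on array 1 and 0.012 on array 2. Exact zeros, 544 spots on array 1 and 494 on array 2, included only 6 of the 498 values of named spots and 0 of the 18 member values. A ratio holds no level, so neither the abundance of these transcripts nor the identity of the tissue could be checked.

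The 18 values of C1QB, CFD and B2M ran from -0.35 to 0.61 with a median of 0.090, and 14 were positive and 4 negative. Over all 498 values of named spots the median was -0.0021, with 239 positive and 253 negative. The median size of a value was 0.11 for the 3 genes and 0.082 for all named spots. One value, a spot of C1QB, lay beyond 1.5-fold, and it was among the 6 of the 498 named values that did (1.2%). The others came from named genes that also had spots at exactly 0.

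**Figure D1:**
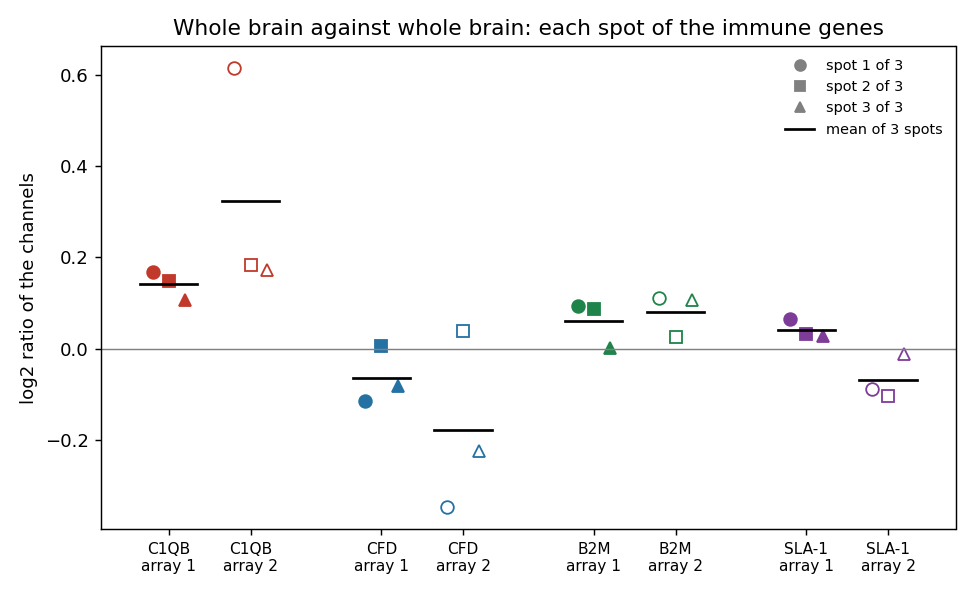
Log2 ratio of the channels (vertical axis) for each of the 3 spots of C1QB, CFD, B2M and SLA-1 on array 1 (filled) and array 2 (open); bars are the mean of 3 spots. C1QB and B2M are above 0 in all 6 values, and the first spot of C1QB on array 2, at 0.61, stands apart from its other spots.

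C1QB was positive in every spot. On array 1 its spots stood at 0.17, 0.15 and 0.11, in the order of their spot numbers. On array 2 the same spots stood at 0.61, 0.18 and 0.17. The first spot was the highest on both arrays, and on array 2 it was a 1.53-fold difference between aliquots of 1 sample, whereas the other spots there were at 1.14-fold and 1.13-fold. The lowest value on array 2 exceeded the highest on array 1, so the arrays did not overlap for this gene.

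The mean of C1QB was 0.23 ± 0.13 (SD, n = 2), from 0.14 on array 1 and 0.32 on array 2, or 1.17-fold. Tested against 0 with limma at 1 value per gene and adjusted over the 83 named genes, it had an adjusted p of 0.049 and a 95% interval of 0.098 to 0.37. In this fit 3 genes passed the threshold of 0.05 with a positive mean (3.61%) and 2 with a negative mean (2.41%). The interval rests on an SD of 0.095 shared by the genes, weighted with 237.9 degrees of freedom, while each gene's own spread had 1. From its own 2 arrays alone the interval was -0.93 to 1.39 (adjusted p = 0.67). The call was lost under 12 of 13 other settings and kept with robust moderation (adjusted p = 0.042). Leaving out the first spot of every gene lowered C1QB from 0.23 to 0.15 (limma, adjusted p = 0.77). In that setting the SD shared by the genes was 0.15, and the lowest adjusted p of any gene was 0.75, so no gene passed there. What the lower mean of C1QB and the larger shared SD each added to the loss was not tested.

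CFD went the other way in most spots. On array 1 its spots stood at -0.11, 0.0053 and -0.082. On array 2 they stood at -0.35, 0.039 and -0.22. The middle spot was the highest, and the only one above 0, on both arrays. The outer spots were farther from 0 on array 2 than on array 1, and the values of array 1 lay within the range of those of array 2.

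The mean of CFD was -0.12 ± 0.081 (SD, n = 2), from -0.064 on array 1 and -0.18 on array 2, or 1.09-fold. Its 95% interval in limma ran from -0.25 to 0.013, and it did not pass (adjusted p = 0.26). The bound farther from 0 corresponds to 1.19-fold.

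B2M, often used as a reference gene, had the smallest ratios of the 3. On array 1 its spots stood at 0.093, 0.088 and 0.0021. On array 2 they stood at 0.11, 0.026 and 0.11. All values were above 0, those of the arrays overlapped, and the largest was a 1.08-fold difference. Its mean was 0.071 ± 0.015 (SD, n = 2), or 1.05-fold, from 0.061 on array 1 and 0.081 on array 2. The 95% interval in limma was -0.062 to 0.20, with an upper bound of 1.15-fold, and B2M did not pass (adjusted p = 0.56).

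With all 6 values above 0, C1QB and B2M were among 16 such genes of 83 (19.3%). A further 15 genes had all 6 below 0, so that 31 of 83 had values of 1 sign. The count of 31 takes the dyes as placed the same way on both arrays, and would not hold with array 2 alone turned. CFD had 2 of 6 above 0. The 3 spots kept their order from array 1 to array 2 in C1QB and in CFD but not in B2M, and in 15 of the 83 genes (18.1%); this count was chosen after the values had been seen.

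**Figure D2:**
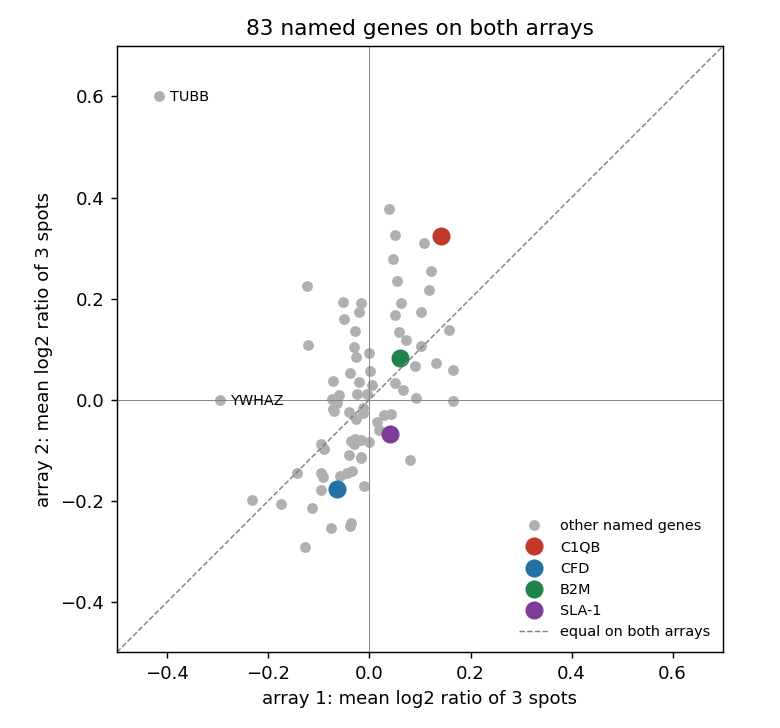
Mean log2 ratio of the 3 spots on array 1 (horizontal axis) and array 2 (vertical axis) for the 83 named genes, with the line of equal values dashed. C1QB lies at 0.14 and 0.32, CFD at -0.064 and -0.18, B2M close to the line at 0.061 and 0.081, and SLA-1 at 0.042 and -0.068.

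The repeatability of the 3 genes differed. Array 2 minus array 1 was 0.18 for C1QB, -0.11 for CFD and 0.021 for B2M. By the size of this difference they ranked 16, 27 and 72 of the 83 named genes from the largest, whose median was 0.082. C1QB and CFD were thus above the median difference and B2M below it. This takes the dyes as placed the same way on both arrays; with array 2 turned the differences were -0.46, 0.24 and -0.14, at ranks 1, 23 and 43. With 1 array on each side the difference has no replicate check. C1QB and CFD lay farther from 0 on array 2, with the same sign as on array 1. The means of all 83 genes were also more widely spread on array 2, with an SD of 0.16 against 0.096 on array 1.

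The spread over the 3 spots showed a like division on array 2. There the SD over spots was 0.25 for C1QB and 0.20 for CFD, ranks 2 and 6 of 83 from the largest, and 0.048 for B2M, rank 72, against a median of 0.090. Only TUBB, a beta tubulin, exceeded C1QB there, at 0.59, and its lowest spot on array 2 was exactly 0. On array 1 the order was different: the SD was 0.031 for C1QB, rank 63, 0.062 for CFD, rank 20, and 0.051 for B2M, rank 30, against a median of 0.041. The spots of C1QB were therefore closer together than those of the median gene on array 1 and farther apart on array 2, where the first spot carried most of the range.

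**Figure D3:**
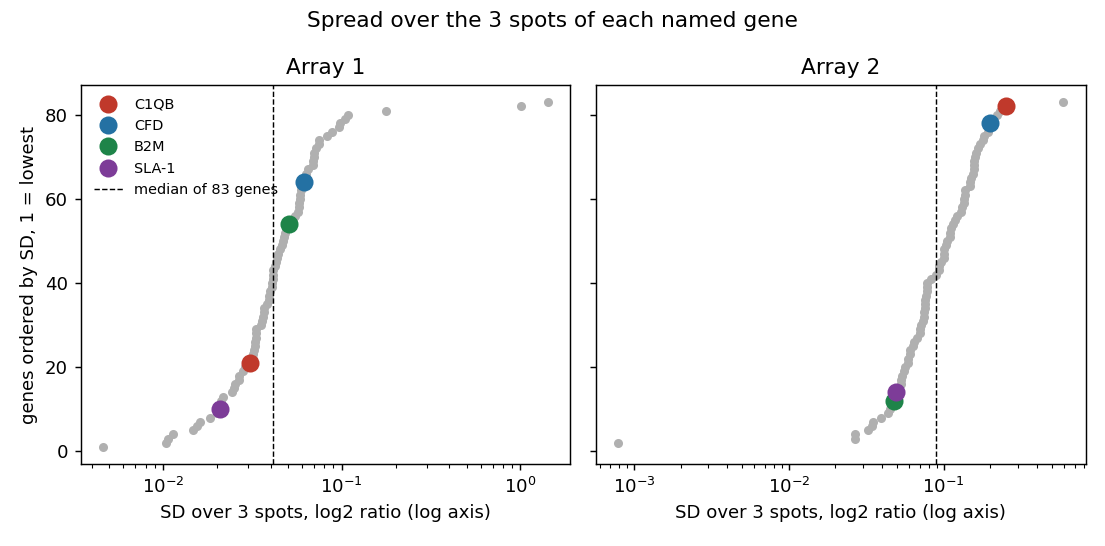
SD over the 3 spots of a gene (horizontal log axis, log2 ratio) against the order of the genes by that SD (vertical axis, 1 is the lowest) on array 1 (left) and array 2 (right); the dashed line is the median of the 83 genes, and a gene with an SD of 0 on array 2 is not drawn. C1QB moves from 0.031 on array 1 to 0.25 on array 2, CFD from 0.062 to 0.20, and B2M stays at 0.051 and 0.048.

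Differences between members within an array do not change if 1 constant is subtracted from all its spots. The normalization is not given, so its other effects on these differences were not tested. C1QB exceeded CFD by 0.20 on array 1 and 0.50 on array 2 (mean 0.35 ± 0.21, SD, n = 2, or 1.28-fold), and their spots did not overlap on either array. C1QB exceeded B2M by 0.080 and 0.24 (0.16 ± 0.11, SD, n = 2), again without overlap. B2M exceeded CFD by 0.12 and 0.26 (0.19 ± 0.095, SD, n = 2), with overlapping spots on both arrays. With 2 arrays an exact two-sided sign permutation test cannot go below p = 0.50, so these differences of log ratios were not tested.

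Of the other complement and MHC genes listed, SLA-1 alone was named on the array. It encodes a heavy chain of pig MHC class I, the partner of beta-2-microglobulin, and belongs to a family of close copies, so which of them bind to its clone is uncertain. Its spots stood at 0.065, 0.032 and 0.027 on array 1. On array 2 they stood at -0.088, -0.10 and -0.011. All were positive on array 1 and all negative on array 2, with a mean of -0.013 ± 0.077 (SD, n = 2), and SLA-1 did not pass (limma, adjusted p = 0.92). B2M exceeded SLA-1 by 0.019 on array 1 and 0.15 on array 2, and their spots overlapped on array 1 only.

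Of 34 complement genes listed, 2 were named on the array, of which C1QB passed with a positive mean, as did 3 of all 83 genes (3.61%), and CFD did not. Centred on the median of the named spots, 0 of the 2 passed. Of 23 genes of MHC class I and antigen presentation, 2 were named, B2M and SLA-1, and neither passed. Of 7 genes of MHC class II, 0 were named. C1QB was the only microglial marker named of 12, and CFD the only one of 5 genes of fat cells. The neuronal markers CPE, a carboxypeptidase of neuropeptide processing, and UCHL1, a deubiquitinase, had means of -0.22 and -0.14, and MT3, a metallothionein of astrocytes, -0.12. CPE passed (limma, adjusted p = 0.049) and the other two did not. Among the other settings CPE kept its call with robust moderation only (adjusted p = 0.042), and centred on the named spots its adjusted p was 0.26. A sample's ratio against itself holds no level of these markers, and their part in the values of C1QB, CFD and B2M was not tested.

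Among the 83 genes the mean of C1QB ranked 1 from the highest, directly above RTCB, an RNA ligase of tRNA splicing, at 0.21 ± 0.14 (SD, n = 2). The gap of 0.023 is smaller than the SD of either gene. CFD ranked 72, between MT3 at -0.12 and SLC25A6, an ADP/ATP carrier of mitochondria, at -0.12. B2M ranked 23, between VTI1B, a SNARE protein, at 0.077 and TNMD (tenomodulin) at 0.070. These neighbours did not differ beyond their spread. With both arrays turned, C1QB ranks 83, CFD 12 and B2M 61, and with array 2 alone turned, C1QB ranks 71, CFD 8 and B2M 46. By size of the mean, C1QB ranked 1, CFD 23 and B2M 43, or 16, 27 and 72 with array 2 turned, and the median gene had a size of 0.075 as deposited.

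The genes nearest to each member were found by the Euclidean distance between array means, over 2 arrays only. For C1QB they were RTCB at a distance of 0.036, TFF2 (a trefoil factor) at 0.071 and ESD (esterase D) at 0.090. For CFD they were ARL6IP5, a membrane protein of the endoplasmic reticulum, at 0.027, UCHL1 at 0.033 and FN1 (fibronectin) at 0.037. For B2M they were POMC, the precursor of corticotropin and melanocortins, at 0.032, PPP1R14A, an inhibitor of myosin phosphatase, at 0.039 and DBI, the acyl-CoA binding protein, at 0.048.

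Spot by spot, limma over all 3888 spots called 0 of the 9 member spots at an adjusted p of 0.05, where 0 spots passed in all (0%), and the lowest adjusted p among the members was 0.46. Without adjustment, 2 member spots were below 0.05, the second spot of C1QB at 0.025 and the first of B2M at 0.036, beside 412 of all 3888 spots (10.6%). Both are spots with small differences between the arrays, 0.036 and 0.018. The spot of C1QB at 0.61 had a value of 0.17 on array 1 and, in the same limma fit, an adjusted p of 0.56.

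Neighbours in spot number did not share these values in full. The unnamed run of 3 spots before C1QB had means of 0.061 and -0.078 on arrays 1 and 2, and the run after it -0.042 and -0.14. The run before CFD had 0.082 and -0.16, and the run after it 0.73 and 0.45, far from CFD in the other direction. Around B2M the runs before, at 0.037 and 0.083, and after, at 0.15 and 0.16, were positive like B2M itself. Spot numbers need not follow positions on the slide, and where the spots were printed was not used here.

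**Figure D4:**
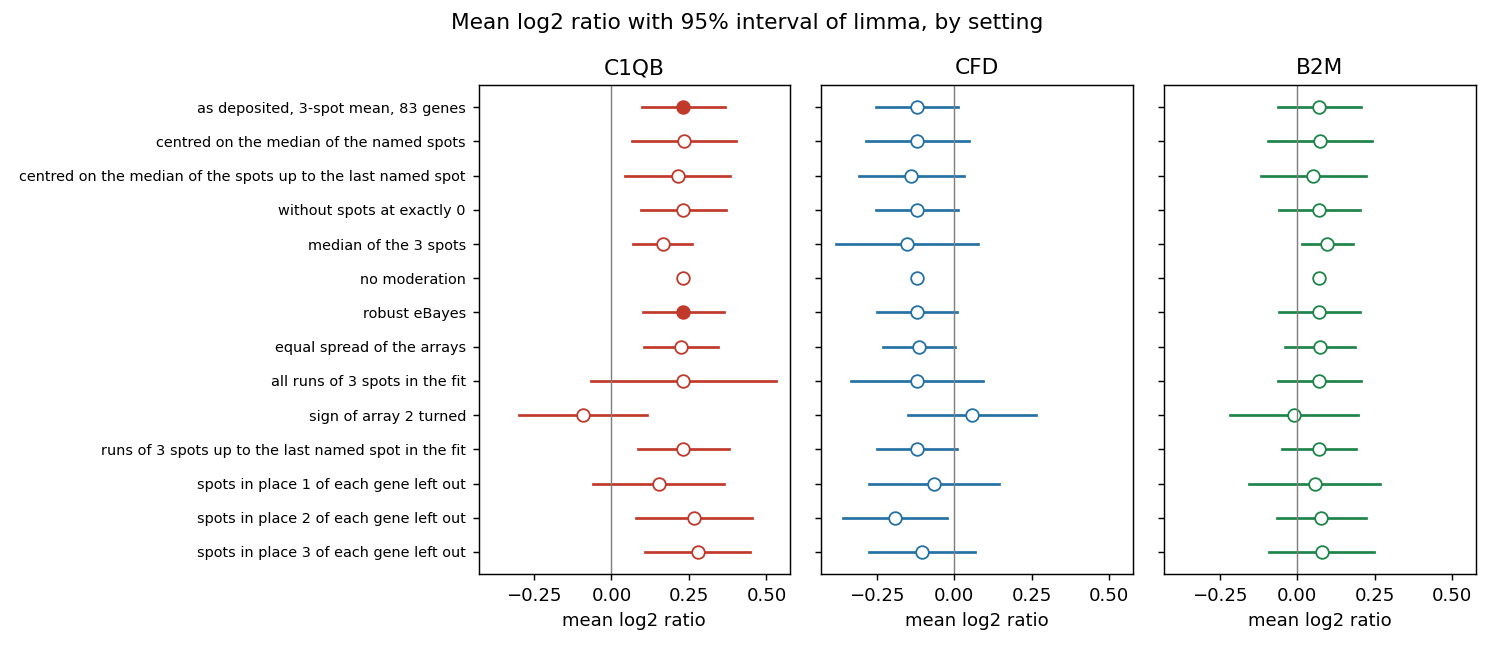
Mean log2 ratio (horizontal axis) of C1QB, CFD and B2M with its 95% interval under each setting of the limma fit (vertical axis); filled points passed an adjusted p of 0.05, and intervals without moderation are not drawn. C1QB is filled as deposited and with robust moderation, and the means of the 3 genes cross 0 in the setting with array 2 turned.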

How the data were processed

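The values deposited by the authors were taken as log ratios between channels, 3888 on each of 2 arrays, with log2 as the assumed unit. The largest size, 6.20, exceeds the 4.82 that log10 of a 16-bit scanner allows, but this does not exclude a natural log. Scanner, background correction, normalization and depth of signal are not given in the sources used here, so the number of arrays limits the precision. Genes came from the platform annotation (1 symbol for 249 spots, several for 0, none for 3639); 2 of the 3 members and 80 of 83 genes were found in RefSeq's pig table. Per gene, the mean of 3 spots on each array entered a limma 3.58.1 fit of the mean against 0 (R 4.3.3, eBayes, Benjamini-Hochberg over 83 genes). The fit was tested on simulated data with the same spread for all genes and planted shifts larger than the means of the members. That test therefore does not cover means of their size. In this fit p-values rest mainly on the SD shared by the genes. That SD comes from the spread between 2 hybridisations, which may be technical. The genes described in the text, out of the 83 with a symbol, are the members, listed pathway and marker genes, neighbours in rank and the 3 nearest genes. Members and lists were chosen with earlier results of these data known. Python 3.11.15 and pandas 2.3.3 were used.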

Additional observations from a re-analysis of the deposited data

How the results depend on the processing

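No paired analysis was possible because both arrays belong to 1 group. Leaving out spots by their place, and the runs up to the last named spot, were settings chosen after seeing the data. The mean of C1QB no longer passed when arrays were centred on the named spots (0.23, adjusted p = 0.26) or on the spots up to the last named one (0.21, 0.33), without exact zeros (0.23, 0.065), with the median of 3 spots (0.17, 0.28), without moderation (0.23, 0.67), with equal spread (0.22, 0.16), with all runs of 3 spots (0.23, 0.44) or those up to the last named spot (0.23, 0.17), and without the first spot of every gene (0.15, 0.77), the second (0.27, 0.26) or the last (0.28, 0.11). The cause was not tested. Turning array 2 reversed the means of C1QB (-0.091), CFD (0.057) and B2M (-0.010) and the array differences (-0.46, 0.24 and -0.14). Each of these genes lay farther from 0 on array 2 than on array 1, on one side of 0. For such values the reversal follows by arithmetic, so it is no separate result. CPE, farther from 0 on array 1, kept a negative mean (-0.017), which follows in the same way. Centring on the named spots turned the array difference of B2M to -0.0074. Single arrays gave 0.14 to 0.32 for C1QB, -0.18 to -0.064 for CFD and 0.061 to 0.081 for B2M. CFD and B2M passed under 0 of 13 settings. In the fit of single spots 0 spots of the whole array passed under any of the 6 other settings, so the 0 of 9 member spots say nothing about stability. Named genes called, 5, became 0 in 9 settings, 1 without exact zeros, 1 with array 2 turned and 4 with robust moderation. In the fit of the runs up to the last named spot, 7 of 865 runs passed, a count over named and unnamed runs together. C1QB and CPE were not among them (limma, adjusted p = 0.17 for each).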
